A study of Tetranychus urticae with 8 samples.

Results

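The gene tetur21g02170 of Tetranychus urticae, the two-spotted spider mite, known as the gene for acetyl-CoA carboxylase, was followed in adult females and adult males. It was chosen by its ID and is 1 of the 17654 gene IDs counted. The count table carries IDs without names, and 0 of its IDs were found in the species' RefSeq gene table, so the enzyme's name could not be checked against the data. Whole bodies of the strain London, kept on cut bean leaves, were pooled for RNA sequencing with about 200 females or about 800 males per library, 4 libraries of each sex. Females were collected at an age of 3 days and males at 1 to 2 days. Sex, age at collection and number of pooled animals therefore changed together and cannot be told apart in any value below. The libraries are labelled as biological replicates, but separate cultures are not stated, so each p-value reflects the spread among these pools, which may be technical.

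Acetyl-CoA carboxylase is a biotin-dependent enzyme that adds a carboxyl group to acetyl-CoA to give malonyl-CoA, the step that commits carbon to fatty acid synthesis. Malonyl-CoA is the building block used by fatty acid synthase and by the enzymes that lengthen fatty acids. In animals a single long polypeptide carries the biotin carboxylase, the biotin carrier and the carboxyltransferase. In mites and whiteflies the enzyme is the target of the keto-enol class of acaricides and insecticides, of which spirodiclofen is one. Females of this mite lay large eggs stocked with yolk and lipid, while males are much smaller.

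The carboxylase gene drew many reads in both sexes, and its level was lower in females than in males by about 28.5%. Gene lengths were not used, so the number of reads does not give the number of transcripts. Female libraries 1 to 4 held 4381, 3420, 3098 and 3608 reads of it, and male libraries 1 to 4 held 4771, 7914, 4189 and 5236. Libraries were of unequal depth, with 12912850 to 17443223 reads on genes in females and 12082575 to 21414612 in males, so reads were converted to CPM, the reads of a gene relative to the size of its library, with library sizes scaled by TMM (trimmed mean of M values). On that scale its level was 249, 263, 236 and 258 CPM in female libraries 1 to 4, against 348, 375, 346 and 338 CPM in male libraries 1 to 4. Every female library was below every male library, and the lowest male value stood 1.28 times above the highest female value.

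**Figure D1:**
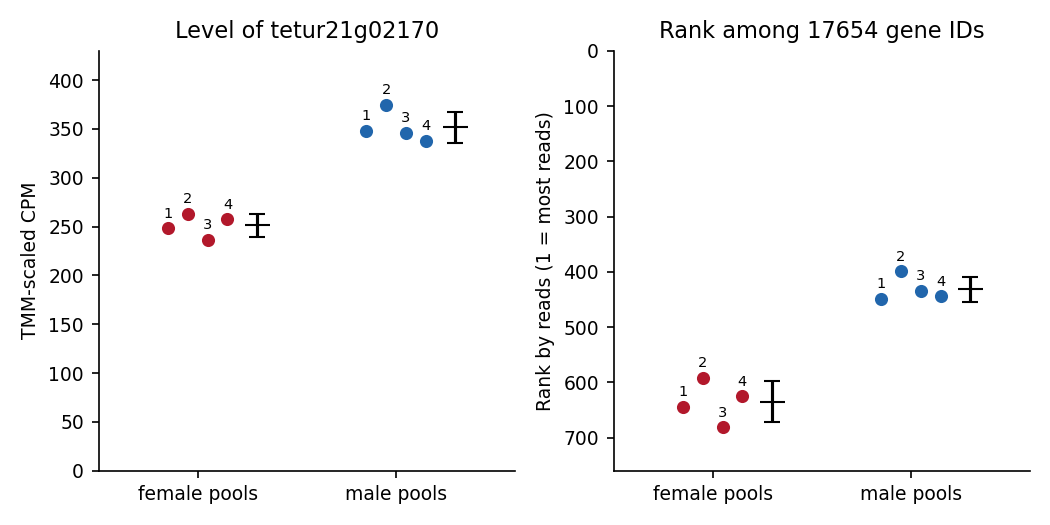
Level of tetur21g02170 in TMM-scaled CPM (left) and its rank by reads among 17654 gene IDs with rank 1 at the top (right), for 4 female and 4 male pools. Points are libraries marked with their replicate number, and bars beside them show the mean and SD. Female levels lie between 236 and 263 CPM, all below the male levels of 338 to 375 CPM, and female ranks of 592 to 681 lie below male ranks of 399 to 449.

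The level averaged 251 ± 12 CPM over the 4 female libraries and 352 ± 16 CPM over the 4 male libraries (SD), a difference of -100.1 CPM (two-sided exact permutation p = 0.0286, the smallest that 4 against 4 libraries can give). The fitted log2 fold change, female minus male, was -0.48 ± 0.06 (SE; 95% interval -0.60 to -0.36), with an adjusted p of 8.07e-07 by edgeR's quasi-likelihood test and Benjamini-Hochberg adjustment over 12885 tested genes. As a ratio, the level in males was 1.40 times that in females, with an interval of 1.29 to 1.52. The gene therefore passed the test at an adjusted p below 0.05 but stayed under the minimum of 2-fold used here to call a gene higher in one sex.

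A difference of this kind was common between the sexes. At any size, 46.2% of tested genes were higher in males at an adjusted p below 0.05, and 43.7% were higher in females. Libraries of the sexes did not overlap, with females below males, in 44.2% of tested genes. Read against this background, a lower level in females without overlap is a property that the carboxylase shared with many tested genes. Its group was that of small differences, since 15.7% of tested genes were higher in males by less than 2-fold, against 30.5% higher in males and 26.9% higher in females by at least 2-fold.

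The sex difference of the carboxylase was smaller than that of most genes. Its log2 fold change of -0.48 compared with a median size, without regard to sign, of 1.22 over all tested genes, and 21.8% of them had a smaller one. Among the 2577 genes of the most abundant of 5 equal abundance classes, to which it belongs, 27.6% had a smaller one and the median size was 0.94. In that class, 24.1% of genes were higher in females and 23.2% higher in males by at least 2-fold, while 45.4% differed by less, as the carboxylase did. Over all tested genes the median log2 fold change was -0.05, so the value of the carboxylase lies below the centre of the distribution.

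**Figure D2:**
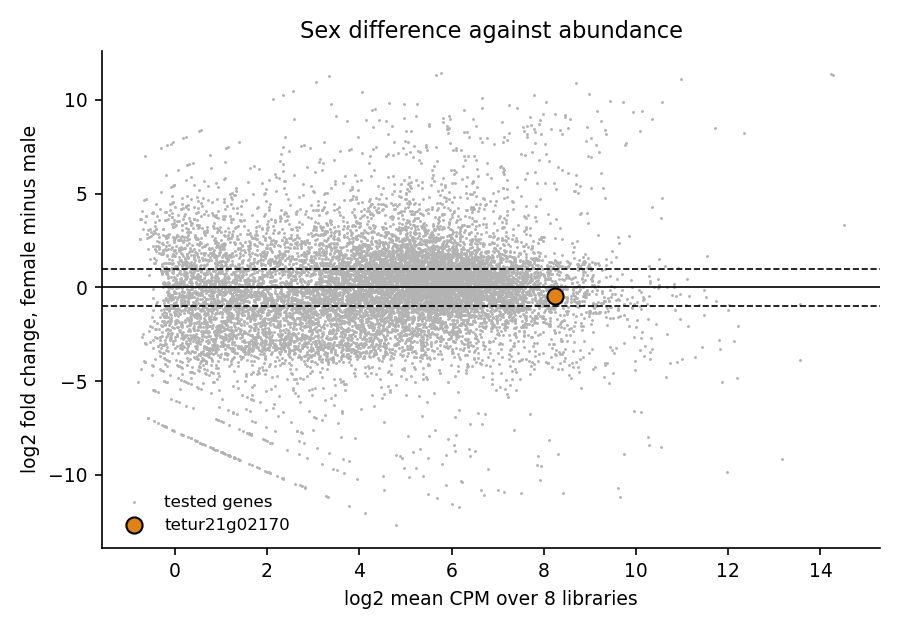
Fitted log2 fold change (female minus male) of each of the 12885 tested genes against log2 mean CPM over the 8 libraries, with dashed lines at 2-fold. The carboxylase gene (orange) lies at -0.48, between the lines and among the abundant genes on the right. The straight diagonal series at the lower left arise from genes without reads in females, whose fitted values depend on the prior count.

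By number of reads the carboxylase ranked lower in females than in males. Ranked by reads among all gene IDs within each library, it stood at 644, 592, 681 and 625 in female libraries 1 to 4 and at 449, 399, 434 and 444 in male libraries 1 to 4, where 1 is the ID with the most reads. The ranks of the sexes did not overlap. The rank averaged 635.5 ± 37.2 over the 4 female libraries and 431.5 ± 22.5 over the 4 male libraries (SD), a difference of 204 places (two-sided exact permutation p = 0.0286, the smallest possible). These ranks put the gene in the top 3.60% of IDs in females and the top 2.44% in males. Among only the IDs with any read in the library, it was in the top 4.40% in females and 2.90% in males on average. A rank within a library does not depend on how libraries are scaled to one another. It counts reads and not transcripts: gene lengths were not used, and a long transcript gives more reads per molecule, so the rank does not order genes by number of transcripts.

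The carboxylase took 1 read in 3967 in females and 1 read in 2862 in males on average. As a percent of the reads on genes, its share was lowest in female replicate 3, at 0.0240% (95% exact Clopper-Pearson interval 0.0232% to 0.0249%). The highest female share, in replicate 2, was 0.0263% (0.0254% to 0.0272%). In males the share lay between 0.0341% in replicate 4 (0.0332% to 0.0350%) and 0.0370% in replicate 2 (0.0361% to 0.0378%). These intervals cover counting error only, and those of the sexes did not meet.

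**Figure D3:**
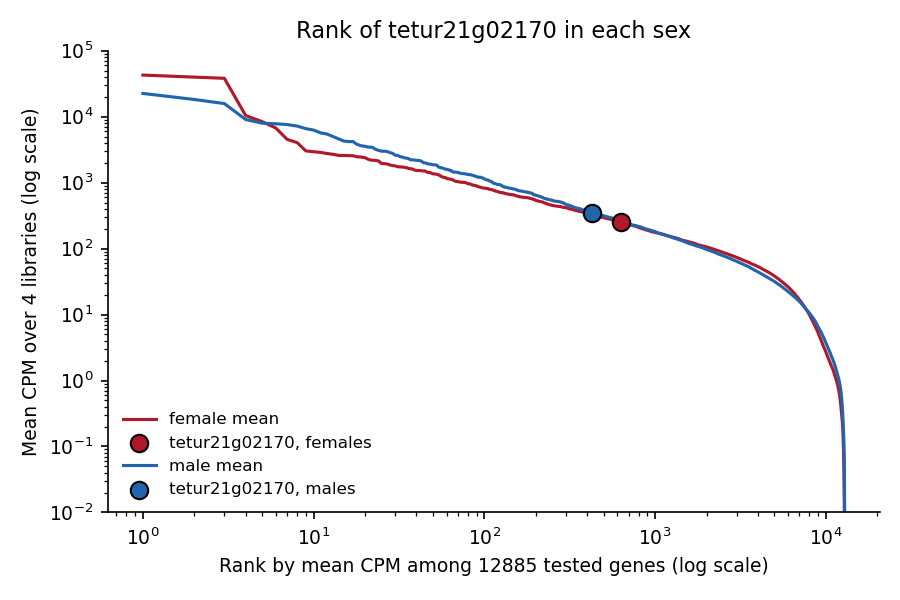
Mean CPM of the 12885 tested genes over the 4 libraries of each sex against their rank, both on log scales, with the carboxylase gene as a circle on each curve. It stands at rank 628 in the female means and 429 in the male means, where the curves run close together.

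The genes above the carboxylase were partly the same in both sexes. By mean CPM, 627 tested genes exceeded it in females and 428 in males, and 231 genes did so in both, which is 36.8% of the female list and 54.0% of the male list. This left 396 genes above it in females alone and 197 in males alone. Of the 396, 283 were called at least 2-fold higher in females, against 26.9% of all tested genes. Of the 197, 180 were called at least 2-fold higher in males, against 30.5%. Such shares follow in part from how these genes were picked. The rank of the carboxylase thus depends also on the sex differences of other genes. Genes above the carboxylase held 50.7% of the scaled reads in females and 48.4% in males.

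The level of the carboxylase varied little between pools of a sex. Its coefficient of variation was 4.69% over female libraries and 4.55% over male libraries, against 1.67% in females and 1.37% in males from counting error alone. The spread thus exceeded that of counting, although it was close to the medians of the same abundance class, 4.94% in females and 4.72% in males. The highest female library, replicate 2, stood 4.70% above the female mean and the lowest, replicate 3, at -6.03% from it. In males, replicate 2 was 6.55% above the mean of its sex and replicate 4 was at -3.95% from it. Male replicate 2 was also the deepest library of the series; without it the log2 fold change was -0.46. The fold between the highest and the lowest library was 1.11 within each sex.

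A pair of genes had profiles most like that of the carboxylase over the 8 libraries, measured as the Euclidean distance between log2 CPM values, so that both level and sex difference count. The nearest, tetur12g03960, was at a distance of 0.22 and had 255, 266, 263 and 275 CPM in female libraries 1 to 4, against 376, 365, 355 and 341 CPM in male libraries 1 to 4. Its level was 0.98 to 1.11 times that of the carboxylase in each library. The next, tetur03g07630, also at 0.22, had 256, 252, 252 and 278 CPM in female libraries and 338, 339, 344 and 336 CPM in male libraries. Both were lower in females in every library, which follows from how they were chosen. Within a distance of 0.5 there were 23 genes, and within 1 there were 89.

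The tested IDs nearest to the carboxylase differed from it in level, and the one before it was lower in females while the one after it was higher. Only tested IDs were considered, so untested IDs may lie between. The tested ID just before it had few reads, with 17, 7, 6 and 10 reads in female libraries 1 to 4 and 22, 60, 31 and 35 in male libraries. Like the carboxylase it was lower in females, at 0.669 ± 0.224 CPM over the 4 female libraries and 2.32 ± 0.53 CPM over the 4 male libraries (SD), a log2 fold change of -1.76 ± 0.27 (SE; adjusted p = 1.97e-05 by edgeR). The tested ID just after it was abundant in females, with 50609, 35229, 33664 and 40569 reads in female libraries and 2878, 4628, 2592 and 3172 in male libraries. That ID averaged 2762 ± 153 CPM over the 4 female libraries and 212 ± 6 CPM over the 4 male libraries (SD), a log2 fold change of 3.70 ± 0.06 (SE; adjusted p = 2.88e-16 by edgeR). The carboxylase, lower in females, is thus followed among tested IDs by a gene 13.0 times higher in females. Whether the 2 genes overlap, and whether reads of one were counted to the other, was not tested, since gene positions were not used here.

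**Figure D4:**
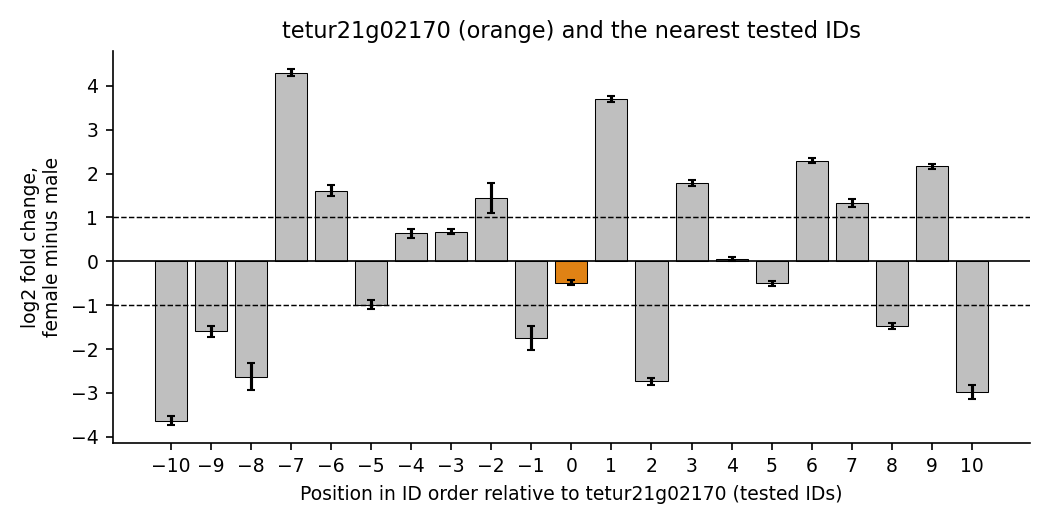
Fitted log2 fold change (female minus male, bars; error bars are SE) of tetur21g02170 (orange) and of the 10 tested IDs on each side of it in ID order, with dashed lines at 2-fold. The carboxylase gene, at -0.48, lies between a low-count ID higher in males and an abundant ID at 3.70, and bars of both directions stand on each side of it.

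Among the 20 tested IDs nearest to the carboxylase, 8 were higher in females and 7 higher in males by at least 2-fold, 4 differed by less and 1 did not pass the test. Of all 248 tested IDs that begin with tetur21, 24.2% were higher in females and 32.3% in males, close to the shares over all tested genes given above. By mean CPM the carboxylase was the 10th of these 248 in both sexes.

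The size of the difference moved with the scaling while its direction did not. Under 5 other scalings the log2 fold change ran from -0.69 with upper quartile scaling to -0.45 with DESeq2's size factors. Upper quartile scaling moved the median of all tested genes to -0.27, and relative to that median the carboxylase stood at -0.43, as it did with TMM. A change of scaling moves all genes nearly alike, so this match follows from the method. Where the set of tested genes changed, the value relative to the median moved, to -0.31 without a filter and -0.52 with at least 5 CPM in 4 libraries. The carboxylase stayed under 2-fold under each of the 5 other scalings. Tested against a fold of 1.5 instead of no difference, the carboxylase did not pass (adjusted p = 0.996 by edgeR's glmTreat), so a difference beyond 1.5-fold was not shown; the upper end of its interval was 1.52. Leaving out 1 library at a time gave -0.51 to -0.46, with adjusted p-values of 7.91e-07 to 5.02e-06 by edgeR.

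**Figure D5:**
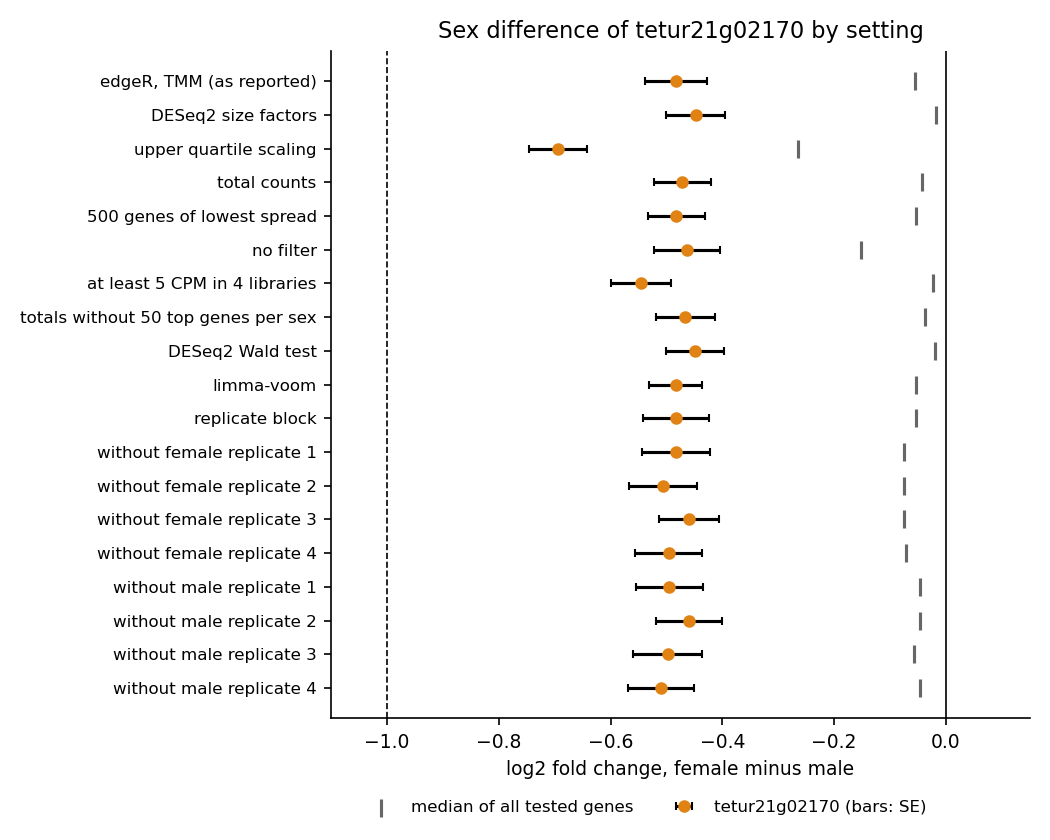
Log2 fold change (female minus male) of tetur21g02170 under each scaling, filter and tool and with each library left out (circles; bars are SE), beside the median of all tested genes in the same setting (grey ticks). The dashed line marks 2-fold; circles lie between -0.69 and -0.45, and the setting with the lowest value, upper quartile scaling, also has the lowest median.

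These are shares of the poly(A) RNA of whole bodies. In such bulk samples, a smaller share of tissue that makes the enzyme and less of its RNA per cell cannot be told apart. The level per animal was not measured, and neither enzyme protein nor lipid was.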

How the data were processed

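Poly(A)-selected, strand-specific libraries were made from pooled whole mites, per the labels' protocols. The deposited values are whole-number read counts per gene ID, 1 column per library, without normalization; the submitters' processing notes name STAR 2.4.1d and HTSeq 0.6.1. The sources used here do not state the build, the annotation, the strand setting or the handling of reads shared by similar or overlapping genes. Columns were matched to samples by name, with 0 columns unused.

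The sexes were compared over all 8 libraries with edgeR 4.0.16 in R 4.3.3 (quasi-likelihood F test, TMM scaling, filterByExpr, sex as the only term), leaving 12885 tested genes that held at least 99.9% of the reads of each library. Adjustment was by Benjamini-Hochberg. SEs were derived from the fold change and its F statistic. The step was tested on simulated counts in which only a small part of the genes was changed. Far more genes differ between the sexes here, so that test does not check the scaling. Values per library were compared by exact permutation over 70 assignments. Depth sets 3 reads at 0.140 to 0.248 CPM. DESeq2 1.42.0, limma 3.58.1, other scalings and filters, a replicate block and leaving out libraries were alternatives. The gene, the lists and the tests were chosen with earlier results of these data known. The 2 IDs of most alike profile (log2 CPM, prior count 0.5) were named by rule, and neighbouring IDs were described without their IDs. A list of fatty acid synthesis and biotin enzymes could not be filled, since the IDs carry no names here. The labels do not say that replicate numbers pair the samples, so the main test did not treat them as pairs.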

Additional observations from a re-analysis of the deposited data

Results flagged for a closer look

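One of the profiles most like that of the carboxylase had a library far from the others. The gene tetur03g07630 had 278 CPM in female replicate 4, against 252 to 256 CPM in the other 3 female libraries, and the gap to the nearest of them was 0.872 of the whole range, above the limit of 0.829 for 4 values. Chance gives such a gap in about 1 in 20 groups, and 12 groups were examined.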

How the results depend on the processing

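The log2 fold change of the carboxylase, -0.48, kept its sign in all 19 alternatives and an adjusted p below 0.05 in all but glmTreat against a fold of 1.5 (-0.48, adjusted p = 0.996), which tests another question. Upper quartile scaling gave -0.69. With the replicate block it was -0.48 (adjusted p = 6.27e-06 by edgeR). Deviations of same-numbered females and males from their sex means correlated at -0.07, 0.0028, 0.015 and 0.029. These correlations weigh all tested genes alike, including genes with few reads, where counting error weakens any correlation. They therefore say little about shared deviation, and cannot show whether same-numbered pools were collected or prepared together. With a library left out, the CPM difference ran from -104.8 to -92.5 and the rank difference from 189 to 218.5 places; 3 against 4 libraries cannot go below an exact permutation p of 0.0571, so neither passes by construction. Thinning to equal depth gave a rank difference of 202.75 places. Genes called at least 2-fold higher numbered 2716 to 3886 in females and 2966 to 4573 in males over the 19 alternatives, within 1.5 times the reported 3467 and 3935. The lowest number in each sex came with at least 5 CPM in 4 libraries, which left 10235 tested genes. The highest came without a filter, from 16141 tested genes, so these ranges follow in part from how many genes were tested. Totals without the 50 most abundant genes of each sex, chosen after the data were seen, gave -0.47. Depth does not limit the level of the carboxylase, since its counting error was below 2% in every library. That does not extend to the numbers of genes called, which include genes with few reads.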
